A study of Rattus norvegicus with 4 samples.

Results

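Liver RNA signals of 10 genes are described here that stepped by several-fold between single samples of a rat feeding study while the deposited standard deviation of each signal stayed small. The genes were chosen by those signals and standard deviations in the same 4 samples, and they are 10 of 21522 genes on the array. They are RGD1564649, Rps9, LOC499823, Birc6, Znf183, Zcchc9, Cdh17, Casp12, RGD1562971 and LOC368066. The differences between samples therefore describe the choice of the genes, and no test was made on them.

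The samples were livers of male Wistar rats aged 4 months, with 1 deposited sample in each of 4 groups. Control offspring received either a standard or a high-fat diet, and so did offspring undernourished before birth, which the labels call FR30 with no further definition. Below, each sample is called by its offspring group and its diet. Where 4 signals are given without names, control standard comes first and control high-fat second, and the FR30 samples follow with the diets in the same sequence. The labels give neither the number of animals behind a sample nor any genotype, and Wistar is an outbred stock. No sequence variant was read in these data, and animal and group cannot be told apart with 1 sample per group. There is no replicate between animals, so no difference below has a p-value.

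The genes have unlike roles. Ribosomal proteins are made in matched amounts and assembled into the subunits that translate mRNA, and mammalian genomes hold many processed copies of their genes, so a probe for one copy can also bind the transcript of another. Inhibitors of apoptosis and many caspases act on opposite sides of cell death, cadherins join neighbouring cells, and methyltransferases of the liver modify small amines.

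RefSeq promoter windows, each running from before a gene's start to just past it in build GRCr8, were found for 6 of the 10 genes: Rps9, Birc6, Znf183 (now Rnf113a2), Zcchc9, Casp12 and LOC368066 (now Inmt). All but that of Zcchc9 are printed 5′ to 3′ on the gene's strand, because they belong to genes whose signal was 2-fold or more higher in FR30 high-fat than in FR30 standard. Rps9 lies on the minus strand at chr1:74430388-74430687, Birc6 on the minus strand at chr6:26668226-26668525, Rnf113a2 on the plus strand at chr6:109794544-109794843, Casp12 on the plus strand at chr8:10926938-10927237 and Inmt on the minus strand at chr4:85652706-85653005. Capitals mark 5 short motifs, searched on both strands. They are the GC box spelled GGGCGG, the box named for its letters CCAAT, the TATA box spelled TATAAA, the core of the NRF-1 motif spelled CGCATGC, and a CRE core spelled TGACG.
Rps9: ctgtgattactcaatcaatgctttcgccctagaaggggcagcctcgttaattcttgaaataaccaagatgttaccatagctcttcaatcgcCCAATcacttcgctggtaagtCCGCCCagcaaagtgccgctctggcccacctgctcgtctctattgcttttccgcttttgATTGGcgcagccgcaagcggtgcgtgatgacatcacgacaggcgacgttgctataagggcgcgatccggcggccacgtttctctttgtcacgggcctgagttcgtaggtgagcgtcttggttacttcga
Birc6: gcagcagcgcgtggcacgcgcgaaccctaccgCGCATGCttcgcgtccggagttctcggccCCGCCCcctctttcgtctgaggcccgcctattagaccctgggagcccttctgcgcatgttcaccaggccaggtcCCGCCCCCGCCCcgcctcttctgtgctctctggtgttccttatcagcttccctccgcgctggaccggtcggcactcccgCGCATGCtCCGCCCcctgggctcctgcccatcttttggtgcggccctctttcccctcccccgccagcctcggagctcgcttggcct
Rnf113a2: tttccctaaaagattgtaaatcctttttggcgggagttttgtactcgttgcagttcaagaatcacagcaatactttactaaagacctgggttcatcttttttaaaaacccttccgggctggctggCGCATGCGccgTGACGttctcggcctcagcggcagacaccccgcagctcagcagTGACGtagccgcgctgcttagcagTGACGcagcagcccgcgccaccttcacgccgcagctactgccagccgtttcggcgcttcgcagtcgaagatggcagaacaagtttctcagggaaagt
Casp12: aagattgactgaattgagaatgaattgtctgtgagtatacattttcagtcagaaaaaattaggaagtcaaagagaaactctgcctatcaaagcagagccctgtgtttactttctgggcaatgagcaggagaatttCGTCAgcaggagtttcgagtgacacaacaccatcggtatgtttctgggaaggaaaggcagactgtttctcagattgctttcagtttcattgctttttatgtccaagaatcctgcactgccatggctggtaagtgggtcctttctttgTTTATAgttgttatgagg
Inmt: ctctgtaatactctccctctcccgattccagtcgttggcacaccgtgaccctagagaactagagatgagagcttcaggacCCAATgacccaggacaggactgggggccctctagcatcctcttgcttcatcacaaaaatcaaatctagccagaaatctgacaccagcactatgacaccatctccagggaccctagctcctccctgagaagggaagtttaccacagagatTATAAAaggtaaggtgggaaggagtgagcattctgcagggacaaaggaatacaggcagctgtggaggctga

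No motif was shared by all 5 of the printed windows. The Birc6 window held 4 GC boxes, 2 of them adjoining, and 2 NRF-1 cores. The Rnf113a2 window held 2 NRF-1 cores that overlap each other on opposite strands, and 3 CRE cores. Rps9 had 1 GC box and 2 CCAAT boxes, Casp12 had 1 CRE core and a TATA motif that lies past the start, and Inmt had 1 CCAAT box and 1 TATA box. Among 33469 RefSeq promoters of the same length, 33.1% held the GC box, 37.5% the CCAAT box, 14.2% the TATA box, 3.33% the NRF-1 core and 21.2% the CRE core. Base composition differed as well: the G+C content was 69.3% for Birc6, 54.3% for Rnf113a2, 53.3% for Rps9, 51.0% for Inmt and 41.0% for Casp12, against a median of 51.7% over all promoters. The Zcchc9 window held none of the motifs.

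All values below are signal intensities from Illumina BeadArrays as the authors normalized them, with their deposited standard deviation (STDEV) beside each. The STDEV does not say what varied. In FR30 standard, 5 genes had a signal over 3-fold above the mean of the other samples and a very wide STDEV. For these the STDEV was 1.73 to 1.79 times the excess, and 1 outlying value among 3 measurements gives 1.73. The sources used here do not say whether those were animals or repeat hybridisations. A signal of about 154 is background, the mean of the negative controls implied by the detection p-values. Log2 values and folds were computed after background correction and quantile normalization. In the 4 samples 8989 to 9215 genes were detected at p below 0.05, and the median normalized signals were 170.3 to 170.9. The authors' normalization can itself bring the medians together, so they do not show how alike the samples were before it. All 9 hepatocyte markers on the array were detected in every sample. FR30 standard stood apart in 3 ways: 114 detected genes had a STDEV over 20% of the signal against 0 or 1 elsewhere, 4 of 6 skeletal muscle markers were detected against 0, and 7 of 8 adipocyte markers were detected against 4 or 5. The summed background-corrected signal of the muscle markers was 637 there and 99.7 to 112 elsewhere. That of the adipocyte markers was 9016 against 2111 to 2732. Some of these markers had a STDEV wider than their signal in FR30 standard. They include Fabp4 at 3020.1 (STDEV 4928), Ucp1 at 1556.8 (2452) and Acta1 at 476.2 (543), whereas Cidec was at 1084.5 (93.2). The non-normalized signal of Fabp4, matched by row order, was 168 in FR30 standard and 235 to 270 elsewhere. The part of these 3 traits of FR30 standard in the results was not tested.

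All 10 genes were detected in all 4 samples, with detection p-values of at most 0.02909, so none was off by the detection threshold. Detection alone does not tell whether a signal comes from the gene itself. Their STDEV ranged from 0.467% to 10.2% of the signal. The signal was nevertheless close to background in the lowest sample of 4 genes, where it was under 2-fold of the background mean. In FR30 high-fat, the STDEV of RGD1562971 was 41.9% of its background-corrected signal.

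**Figure D1:**
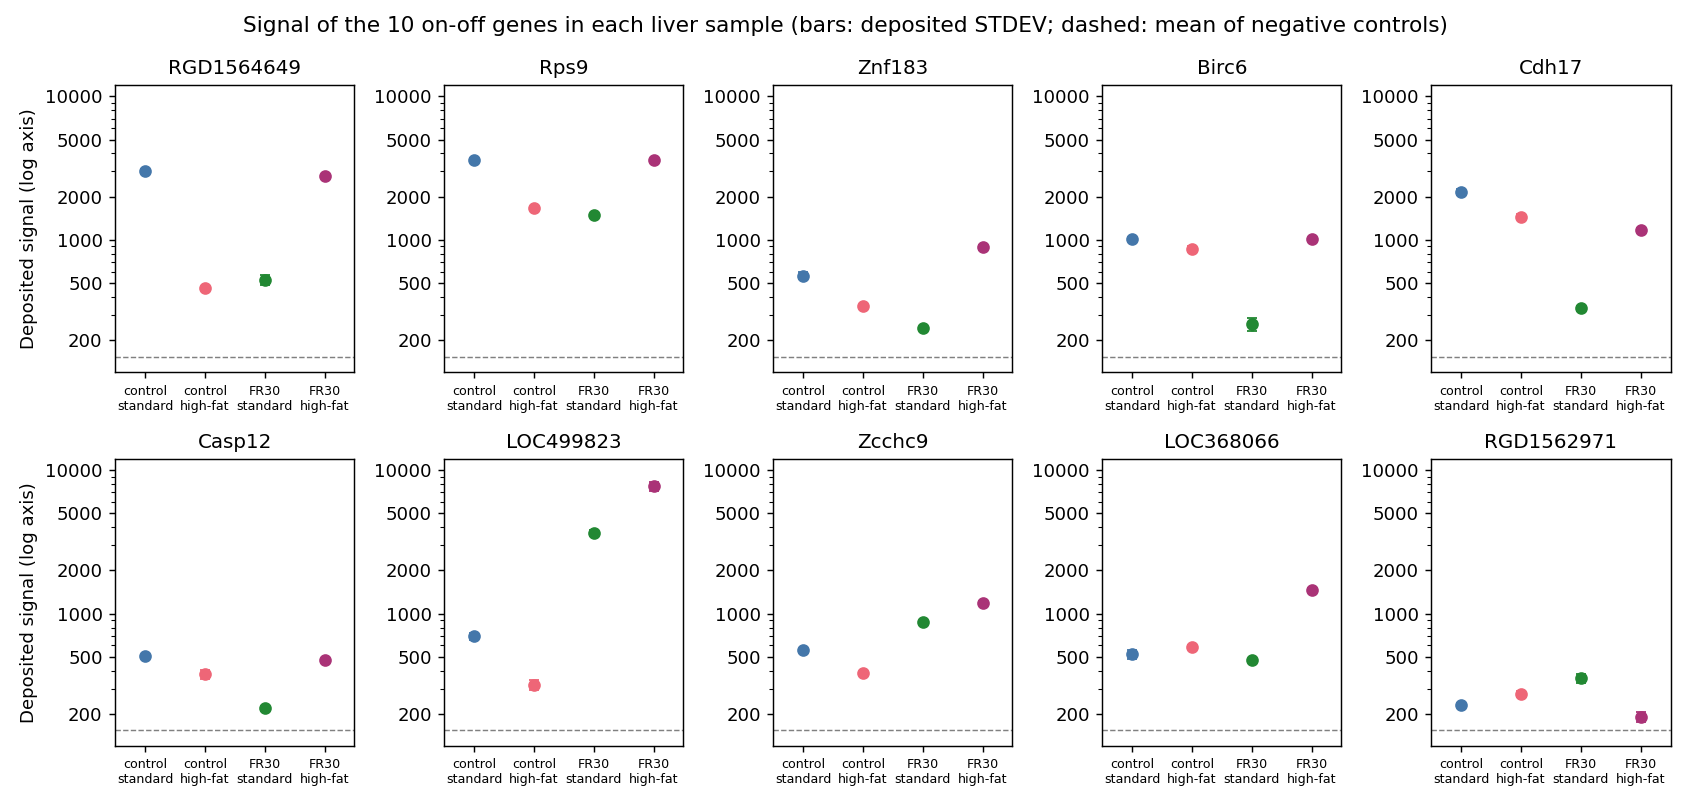
Deposited signal (log axis) of the 10 genes in the 4 samples, 1 panel per gene, with bars of 1 STDEV and the mean background of about 154 as a line. RGD1564649 and Rps9 are high in the same pair of samples, Birc6, Cdh17 and Casp12 are lowest in FR30 standard, and LOC499823 is highest in FR30 high-fat.

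Both ribosomal protein S9 entries were high in control standard and FR30 high-fat and low in the other pair. For RGD1564649, annotated as similar to the 40S ribosomal protein S9, the signal was 3019.4 (STDEV 76.0) in control standard and 461.9 (4.44) in control high-fat. It was 526.1 (39.5) in FR30 standard and 2775.0 (21.4) in FR30 high-fat. The low and the high pair were separated by a step of 2.76 on the log2 scale, or 6.76-fold, and the widest difference within a pair was 0.26.

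Rps9 encodes a protein of the small ribosomal subunit itself. Its signal was 3609.7 (STDEV 85.2) in control standard, 1678.8 (15.9) in control high-fat, 1481.8 (36.4) in FR30 standard and 3618.8 (59.6) in FR30 high-fat. The high pair differed by less than its STDEVs, and the step between the pairs was 1.18 on the log2 scale, or 2.26-fold.

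The array holds 5 rows described as ribosomal protein S9 or similar to it. RGD1566136, another S9-like entry that was not among the 10 genes, had 211.7 (STDEV 8.42) in control standard, 167.4 (5.53) in control high-fat, 166.8 (5.75) in FR30 standard and 216.4 (3.95) in FR30 high-fat. It was detected only in the pair in which RGD1564649 and Rps9 were high, and its range was 1.06 on the log2 scale. LOC363596 and RGD1563537, the other S9-like entries, were detected in no sample. Rps9 and its copies can share probe targets, so these rows are uncertain as separate measurements. Probe sequences were not used here.

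**Figure D2:**
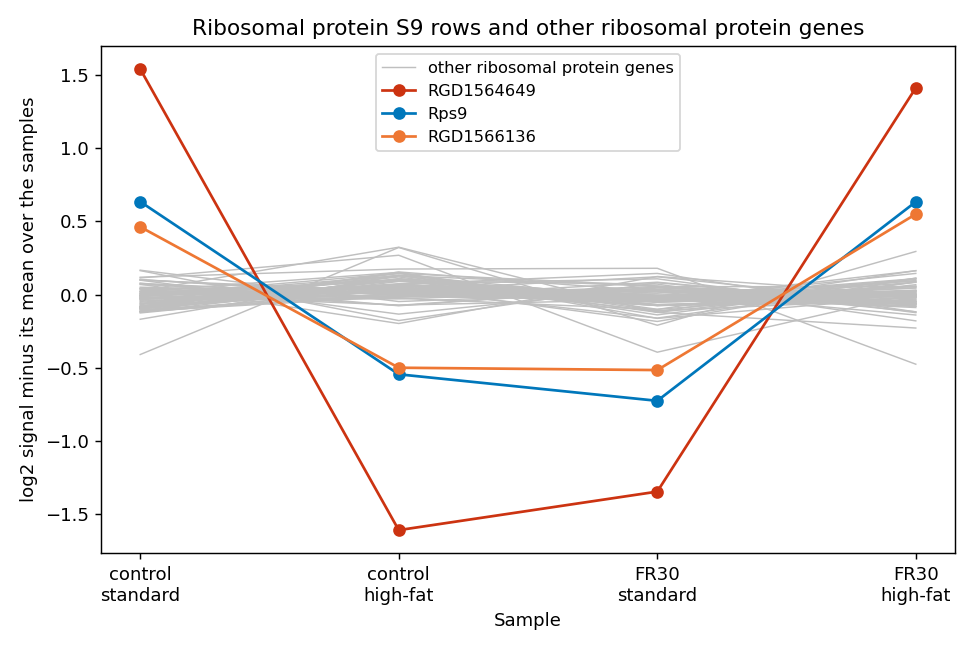
Log2 signal after background correction, centred on each gene's mean over the 4 samples. Coloured lines are the S9 rows detected in any sample. Grey lines are the 70 listed ribosomal protein genes detected in all samples. Further rows only described as similar to a ribosomal protein are not drawn, among them RGD1562905 with a range of 1.78. The 3 S9 rows are all above their mean in control standard and FR30 high-fat and below it in the other pair, and none of the grey lines spans more than 0.73.

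The listed ribosomal protein genes were flatter. Of 98 listed ribosomal protein genes on the array, 70 were detected in all samples and 0 of these had a step of 2-fold or more. None of them reached 2-fold in any of the 4 comparisons between samples. Their median range was 0.19 on the log2 scale, against 0.29 over all genes, and the widest were Rpl15 at 0.73, Rpl30 and Rpl10l at 0.66 each, and Rpl7 at 0.55. A further 471 rows are only described as similar to a cytosolic ribosomal protein and are not among the 10 genes. Of these 133 were detected in all samples, with a median range of 0.19, and 1 had a range of 2-fold or more. It is RGD1562905, similar to the 60S ribosomal protein L17, at 1388.9 (STDEV 35.5) in control standard, 1372.9 (64.3) in control high-fat, 534.2 (18.9) in FR30 standard and 1507.1 (57.0) in FR30 high-fat. Its range of 1.78 was wider than that of Rps9 at 1.36, and its low sample was FR30 standard alone.

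RGD1562971, annotated as similar to the large subunit protein L21, had signals of at most 354.3. Its signal was 229.8 (STDEV 7.83) in control standard, 276.4 (13.3) in control high-fat, 354.3 (28.1) in FR30 standard and 191.5 (16.3) in FR30 high-fat. It was highest in FR30 standard and lowest in FR30 high-fat, and its values formed a graded series: the largest step was 0.74, under 2-fold, while the spread above that step was 1.24. The gap at the step was 1.59 times the summed STDEV of the samples on either side, the smallest such ratio of the 10 genes. Among 37 other rows described as L21 or similar to it, 17 were detected in all samples, with a median range of 0.12 and a largest of 0.47 (RGD1561587). None of the 37 had a range of 2-fold.

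Birc6, Casp12 and Cdh17 each had their lowest signal in FR30 standard, below a step of more than 2-fold. Birc6, a very large inhibitor of apoptosis that also conjugates ubiquitin, had a signal of 1019.7 (STDEV 22.7) in control standard, 864.8 (35.3) in control high-fat, 259.6 (26.4) in FR30 standard and 1012.5 (19.3) in FR30 high-fat. The 3 high samples spanned 0.27 on the log2 scale, and FR30 standard lay 2.58 below the lowest of them. That low signal is close to background, so the fold depends on the correction.

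The relatives of Birc6 did not step. Of 10 listed inhibitors of apoptosis and their partners, 8 were detected in all samples and 0 had a step of 2-fold. Their median range was 0.29, and the widest was Birc2, another inhibitor of apoptosis, at 0.84. Birc2 had its highest signal, 1884.3, in the sample in which Birc6 was lowest, against 1112.8 to 1428.2 elsewhere.

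Casp12 encodes a caspase of the inflammatory group that has been placed at the endoplasmic reticulum. Its signal was 509.9 (STDEV 7.29) in control standard, 378.4 (25.4) in control high-fat, 218.3 (9.11) in FR30 standard and 473.8 (2.62) in FR30 high-fat. The step below the 3 higher samples was 1.59 on the log2 scale, and those 3 spanned 0.63. Without background correction the step was 0.80, under 2-fold. Casp11 (now Casp4), the inflammatory caspase that senses lipopolysaccharide in rodents and lies 2 places from Casp12 on chromosome 8, was also lowest in FR30 standard. Its signals were 296.7, 256.6, 229.3 and 296.6 in that order of samples, a range of 0.81. Of 15 listed caspases and endoplasmic reticulum stress partners, 11 were detected in all samples and 0 had a step of 2-fold.

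Cdh17 encodes the liver-intestine cadherin, first described in the rat in both of these organs. Its signal was 2161.6 (STDEV 99.0) in control standard, 1449.3 (54.7) in control high-fat, 332.5 (14.8) in FR30 standard and 1177.9 (40.1) in FR30 high-fat. FR30 standard lay 2.43 below the next sample on the log2 scale, or 5.39-fold, and the 3 higher samples spanned 0.97. In bulk liver, fewer cells that carry a transcript and less of it per cell cannot be told apart.

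Neither the few other cadherins detected nor the summed markers of epithelia that carry Cdh17 stepped with it. Of 21 listed cadherins and catenins, 6 were detected in all samples, 0 had a step of 2-fold, and the widest range was 0.42 (Ctnnb1, beta-catenin). Of the 6, only Cdh1 and Cdh19 are cadherins. The background-corrected sum of 8 intestinal markers was 535 in control standard, 631 in control high-fat, 611 in FR30 standard and 439 in FR30 high-fat, with 3 or 4 of them detected. The sum of 6 biliary markers lay between 999 and 1259, with 3 detected in every sample. The highest intestinal signal was that of Fabp2, at 395.6 to 573.9, and the highest biliary signal that of Epcam, at 946.6 to 1125.0. Each sum thus depends strongly on 1 gene. Neither sum was lowest in FR30 standard, and cell content was not tested.

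Znf183 combined both patterns. The gene is now named Rnf113a2, and its human relative RNF113A is a RING finger protein of the spliceosome that also acts in repair of alkylated DNA. Its signal was 563.6 (STDEV 29.5) in control standard, 347.1 (1.82) in control high-fat, 242.2 (3.16) in FR30 standard and 885.5 (38.9) in FR30 high-fat. It was high in the same pair of samples as the S9 entries and lowest in FR30 standard. Rps9 was also lowest there, at 1481.8 against 1678.8 in control high-fat. The Znf183 step was 1.03 (2.04-fold), with a spread of 1.0 within the low pair. The step was therefore about as wide as the spread beside it. Of 12 listed spliceosome and alkylation repair partners, all 12 were detected in every sample, with a median range of 0.23 and a largest of 0.56 (Alkbh2, which removes alkyl groups from DNA).

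LOC499823 and Zcchc9 were higher in both FR30 samples than in both controls. LOC499823 is annotated only as similar to LRRGT00001. Its signal was 693.5 (STDEV 43.0) in control standard, 318.9 (25.8) in control high-fat, 3624.6 (174) in FR30 standard and 7726.1 (535) in FR30 high-fat. Its range of 5.40 on the log2 scale, or 42.2-fold, was the widest of the 8451 genes detected in all samples. The step of 2.65 between control standard and FR30 standard was set beside a spread of 1.63 within the controls, so the signal took 4 separate levels. No other row is described as LRRGT00001. A further 260 rows carry an LRRGT name with another number, and whether they are related in sequence was not examined. Of these, 69 were detected in all samples, and 2 of the 69 had a range of 2-fold or more, the widest being LOC501173 at 1.34. The 69 had a median range of 0.44, against 0.29 over all genes detected in all samples. The share of all genes with a range of that size was not counted.

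Zcchc9 encodes a protein with zinc knuckles, small zinc-binding motifs of nucleic acid binding proteins. Its signal was 553.8 (STDEV 7.38) in control standard, 383.7 (6.07) in control high-fat, 870.8 (10.4) in FR30 standard and 1187.5 (36.4) in FR30 high-fat. The step of 0.81, or 1.76-fold, was little wider than the spread of 0.76 within the controls. Of 8 listed zinc knuckle genes, 6 were detected in all samples, and the widest range was 0.37 (Zcchc8).

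LOC368066 stood out in FR30 high-fat alone. It is annotated as similar to indolethylamine N-methyltransferase and carries the current name Inmt through its gene identifier. Inmt transfers methyl groups to tryptamine and related amines. Its signal was 520.2 (STDEV 40.9) in control standard, 585.1 (18.9) in control high-fat, 477.3 (2.23) in FR30 standard and 1468.0 (33.4) in FR30 high-fat. The 3 low samples spanned 0.40 on the log2 scale, and the step above them was 1.57, or 2.96-fold.

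The largest step of each gene was set against the same measure over all genes. Of 9853 genes detected in at least 1 sample, 135 had a step of 2-fold or more, which is 1.37%. Of the 8451 detected in all 4 samples it was 85, or 1.01%. The median step was 0.17 in either set and 1.58 over the 10 genes, of which 8 passed 2-fold. As the genes were picked for their jumps, nothing is read from this excess. Zcchc9 and RGD1562971 did not pass. In 6 of the 10 the step was at least 2 times the spread on each side, as in 55 of the 85: RGD1564649, Rps9, Birc6, Cdh17, Casp12 and LOC368066. Among the 8451 genes, the step ranked place 4 for RGD1564649, 6 for LOC499823, 7 for Birc6 and 8 for Cdh17. It ranked 25 for Casp12, 26 for LOC368066, 55 for Rps9, 79 for Znf183, 162 for Zcchc9 and 202 for RGD1562971.

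**Figure D3:**
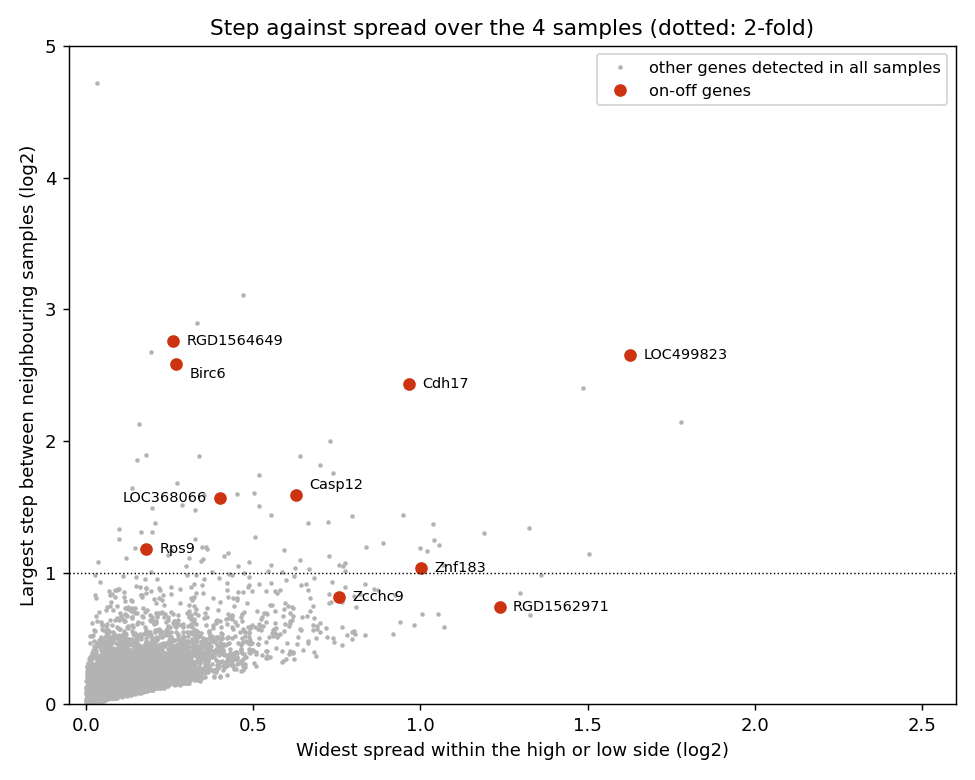
Largest step between neighbouring samples (log2, vertical) against the widest spread on either side of it (log2, horizontal) for the 8451 genes detected in all samples, with the 10 genes named. RGD1564649, Birc6 and Rps9 combine a large step with a small spread, and Zcchc9 and RGD1562971 lie under the 2-fold step of 1.

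The way the step divided the samples differed in frequency among the 85 genes. Control standard with FR30 high-fat against the rest, the division of the S9 entries, was seen in 3 genes (3.53%), which are RGD1564649, Rps9 and Znf183. All samples but FR30 standard were high in 10 genes (11.8%), Birc6, Cdh17 and Casp12 among them. Both FR30 samples were high in 1 gene (1.18%), LOC499823. FR30 high-fat alone was high in 6 genes (7.06%), LOC368066 among them. The most common division was high in both high-fat samples, in 19 genes (22.4%), and none of the 10 genes showed it.

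Between the diets, 9 of the 10 genes differed in opposite directions in the control and the FR30 offspring, LOC368066 being the exception. RGD1564649, Rps9, LOC499823 and Znf183 did so by 2-fold or more in both. The 9 include differences of any size, such as −0.27 for Birc6 in control offspring. The share of all genes that differed in opposite directions was not counted, so nothing is read from these reversals. In control offspring, 4 of the 10 were 2-fold or more lower on the high-fat diet and 0 were higher, where 0.790% of 8732 genes detected in both samples were lower and 0.664% higher. The 4 were RGD1564649 at 8.87-fold (log2 difference −3.15, propagated STDEV 0.04), LOC499823 at 3.09-fold (−1.63, 0.25), Rps9 at 2.26-fold (−1.18, 0.04) and Znf183 at 2.04-fold (−1.03, 0.10). The Znf183 difference fell under 2-fold without background correction (−0.70) and with an offset of 50 (−0.92). That of LOC499823 was −1.13 without background correction, still over 2-fold. The median of the 10 was −0.69, against 0.01 over all genes. Over all genes the split was 58 higher and 69 lower, and with median scaling in place of quantiles it was 49 and 95.

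In FR30 offspring, 8 of the 10 were 2-fold or more higher on the high-fat diet and 1 was lower, where 1.05% of 8729 genes were higher and 0.905% lower. Birc6 was 7.19-fold higher (log2 difference 2.85, propagated STDEV 0.36), Znf183 7.16-fold (2.84, 0.09), RGD1564649 6.76-fold (2.76, 0.15) and Cdh17 5.39-fold (2.43, 0.13). Casp12 at 4.18-fold, LOC368066 at 3.91-fold, Rps9 at 2.57-fold and LOC499823 at 2.17-fold completed the 8. RGD1562971 was 3.93-fold lower, and Zcchc9 was 1.43-fold higher. Without background correction, the RGD1562971 difference was −0.88, under 2-fold, and the log2 differences were 1.96 for Birc6, 1.87 for Znf183, 1.83 for Cdh17 and 1.12 for Casp12. The median was 2.02, against 0.00 over all genes.

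On the standard diet, FR30 offspring had 6 of the 10 genes 2-fold or more lower than control offspring and 2 higher, where 0.456% of 8767 genes were lower and 0.513% higher. Cdh17 was 10.5-fold lower (log2 difference −3.40, propagated STDEV 0.14), RGD1564649 7.39-fold (−2.89, 0.16) and Birc6 7.23-fold (−2.85, 0.36). Casp12 was 4.64-fold, Znf183 4.09-fold and Rps9 2.57-fold lower, whereas LOC499823 was 6.28-fold and RGD1562971 2.36-fold higher. Without background correction the log2 differences were −2.71 for Cdh17, −1.97 for Birc6, −1.23 for Casp12 and −1.22 for Znf183. RGD1562971 then lay under 2-fold, at 0.62, and at 0.99 with an offset of 50. This comparison and the preceding one share the FR30 standard sample, so a low value there enters both.

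On the high-fat diet, FR30 offspring had 6 of the 10 genes 2-fold or more higher than control offspring and 1 lower, where 0.240% of 8738 genes were higher and 0.252% lower. LOC499823 was 42.2-fold higher (log2 difference 5.40, propagated STDEV 0.25), RGD1564649 8.11-fold (3.02, 0.02), Zcchc9 4.26-fold (2.09, 0.06) and Znf183 3.57-fold (1.84, 0.08). LOC368066 was 2.96-fold and Rps9 2.26-fold higher, and RGD1562971 was 2.51-fold lower. Without background correction the LOC499823 difference was 4.6 on the log2 scale, and RGD1562971 lay under 2-fold, at −0.53, as it did with an offset of 50, at −0.95. Birc6, Casp12 and Cdh17 stayed under 2-fold here, at log2 differences of 0.26, 0.48 and −0.34. Over all genes the split was 21 higher and 22 lower, and with median scaling it was 29 and 16.

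**Figure D4:**
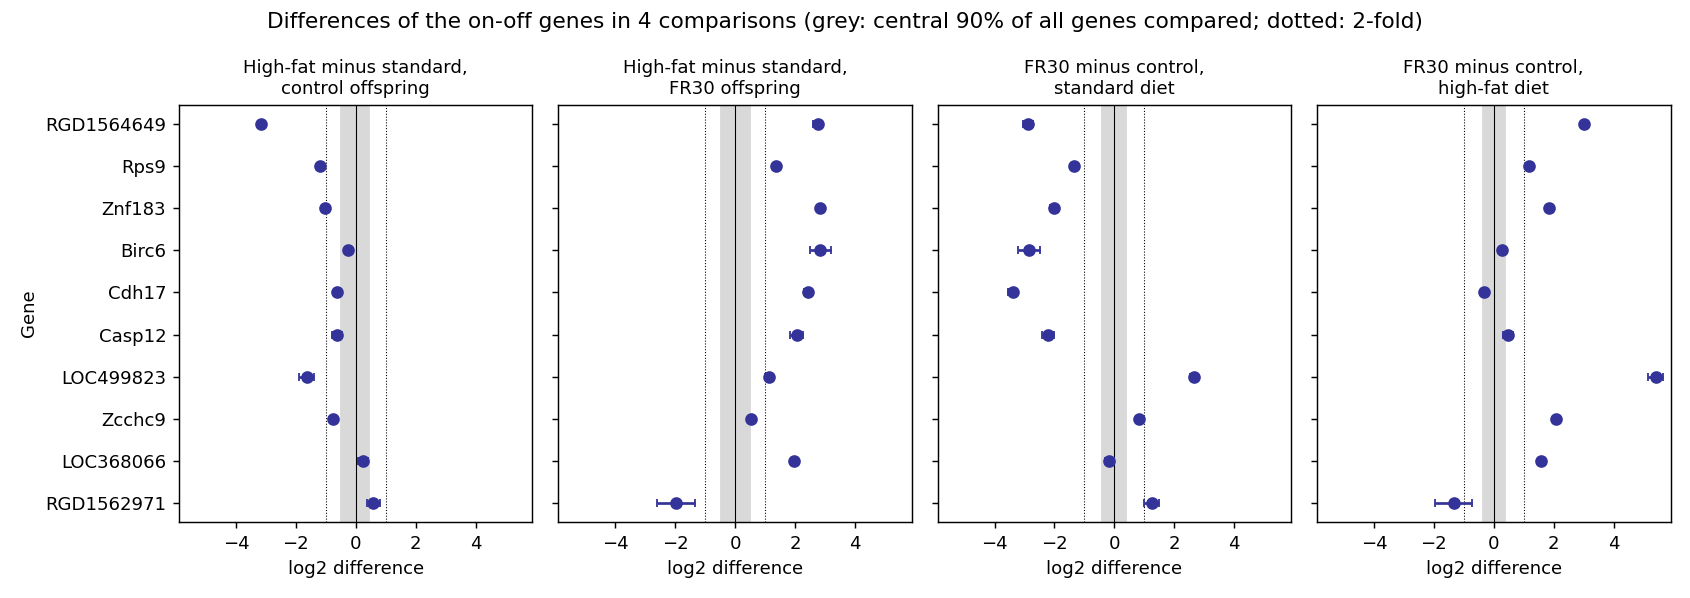
Log2 difference of the 10 genes in the 4 comparisons between samples, with bars of 1 propagated STDEV and shading for the central 90% of all genes. RGD1564649, Rps9 and Znf183 lie below 0 between the diets in control offspring and above 0 in FR30 offspring, and LOC499823 reaches 5.40 between the FR30 and control high-fat samples.

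For each gene, the 3 genes with the most similar centred log2 profile were listed by root mean square difference over the 4 samples, among genes detected in at least 1. Rps9 was nearest to its S9-like relative RGD1566136 at 0.14, which was detected in 2 samples only, then to Ugt2a3, a glucuronosyltransferase, at 0.21. For RGD1564649 no profile was close: Znf183 came first at 0.75 and Ugt2b17, another glucuronosyltransferase, followed at 0.84. Birc6 was nearest to Scnn1a, the alpha subunit of the epithelial sodium channel, at 0.27, and then to Cdh17 at 0.35 and Casp12 at 0.37. Scnn1a was not detected in FR30 standard, where its signal was 160.7, so its distance there rests on a value at background. Casp12 was nearest to RGD1562905, the L17-like row described above, at 0.25. Znf183 was nearest to LOC366380 at 0.45 and Scnn1a at 0.46.

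For LOC368066, LOC363865 and Pbsn came first by this measure, but both were detected in 1 sample only and lay at background in the other 3, so their distances are not interpretable. Nr1i3 was detected in all samples and came next at 0.14. Nr1i3, the constitutive androstane receptor of the liver, had signals of 893.6, 1020.3, 673.2 and 2439.9 in that order and so also stood highest in FR30 high-fat. RGD1562971 was nearest to Mcm6, a subunit of the replicative helicase, at 0.26 and Mx2, an interferon-induced GTPase, at 0.31. Zcchc9 was nearest to Mist1 (now Bhlha15) and RGD1304570 (now Fn3krp) at 0.35 each, the latter not detected in 1 of the samples, and Fads1, a fatty acid desaturase, at 0.36. LOC499823 had no near profile, with Zcchc9 first at 1.34. Each profile rests on 4 values from shared samples, so closeness describes these samples.

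Genes beside the 10 on the chromosomes were examined by their order in the RefSeq gene table of GRCr8, which held 7 of the 10, on 6 chromosomes. Within 3 places on either side there were 42 neighbours, of which 22 were on the array and 10 were detected in all samples. The median range of those 10 was 0.56, against 0.29 over all genes detected in all samples. Only Aqp1, a water channel gene near LOC368066, had a range of 2-fold or more among them: its signal was 393.0 in control standard, 317.0 in control high-fat, 623.2 (STDEV 114) in FR30 standard and 474.3 in FR30 high-fat. Aqp1 was thus highest in FR30 standard, whereas LOC368066 was highest in FR30 high-fat. The share of all genes with a range of 2-fold was not counted.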

How the data were processed

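Total RNA of rat liver was measured on Illumina BeadArrays in 4 deposited samples, 1 per group. Per the file headers, the deposited normalized table gives for every gene an intensity, a STDEV and a detection p-value, and a second deposited table gives non-normalized intensity and detection p-value. The submitters' processing notes name GenomeStudio. The sources used here give neither its version nor the normalization method nor what each STDEV was taken over. Of 21791 rows, 21522 genes were kept, named from the file or by RefSeq tables of GRCr8.

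The deposited intensity was corrected for background by limma 3.58.1 (R 4.3.3), under its normal-exponential model, with the negative controls' mean and SD inferred from the detection p-values and an offset of 16, then quantile-normalized and turned to log2. Comparisons used genes detected (p at most 0.05) in both samples, and 2-fold was the call. The propagated STDEV combines the deposited STDEVs of both samples on the log2 scale. The steps were planned over genes detected in at least 1 sample, and ranks over genes detected in all 4 were added after seeing the data. The fold calculation was tested on simulated data.

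Identifiers of the non-normalized table did not match its values, which correlated with the normalized log2 intensity at Pearson r of 0.0587 to 0.0658 across rows. By row order r was 0.99921 to 0.99992, in part by construction. That order served only as an alternative. Alternatives were no background correction, median scaling, an offset of 50, no detection filter, 1.5-fold, a requirement of 2 STDEV and the non-normalized table. Later steps ran in Python 3.11.15.

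The genes and the gene lists were chosen with earlier results of these data known. Besides the 10 genes, those named are the 3 nearest profiles of each, up to 4 of widest range per list, and chromosomal neighbours with a range of 2-fold. Rows of the same protein and rows similar to ribosomal proteins were added after seeing the data.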

Additional observations from a re-analysis of the deposited data

Results flagged for a closer look

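In 4 of the 10 genes the high-fat diet went with a signal 2-fold or more lower in control offspring and 2-fold or more higher in FR30 offspring. The diet difference in FR30 minus that in control offspring was 5.91 on the log2 scale for RGD1564649, 3.87 for Znf183, 2.75 for LOC499823 and 2.54 for Rps9. For Znf183 the difference in control offspring was under 2-fold without background correction and with an offset of 50. For LOC499823 it was −1.13 without background correction, against −1.63 with it. With 1 sample per group these differences were not tested, and the genes were chosen for such jumps. The share of all genes with such a reversal was not counted.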

How the results depend on the processing

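Each count and log2 difference of the 10 genes kept its direction under all alternatives run. The count of the 10 at 2-fold between the diets in control offspring was 4, and it was 8 at 1.5-fold and 3 without background correction or with an offset of 50, when Znf183 was lost. The 3 calls of RGD1562971 were lost without background correction, and 2 of them with an offset of 50. Over all genes, the counts at 2-fold were 127 and 171 between the diets in control and FR30 offspring, and 85 and 43 between FR30 and control on the standard and high-fat diet. Without background correction they were 55, 82, 35 and 19, and at 1.5-fold they were 501, 586, 346 and 290. Steps of 2-fold were counted in 135 genes detected in at least 1 sample and in 85 detected in all 4. Of the 10 genes, 8 had such a step, against 6 without background correction, 7 with an offset of 50, 8 with median scaling and 7 of the 8 found in the non-normalized table. Without background correction, the steps of Casp12 (0.80) and Znf183 (0.70) fell under 2-fold. RGD1562971 changed its high samples without background correction, with an offset of 50 and in the non-normalized table, and Zcchc9 did so with median scaling. The non-normalized table, matched by row order, held 2 rows for Rps9, taken separately as an alternative added after seeing the data. Both were high in control standard and FR30 high-fat, with steps of 0.85 and 1.31, and it shares hybridisations with the normalized table. No paired analysis was possible because each group holds 1 sample, and for the same reason no replicate could be left out. Signal close to background limits the folds of Birc6, Casp12, Cdh17, Znf183 and RGD1562971. For LOC499823 it limits the comparisons that use control high-fat, which are FR30 against control on the high-fat diet and the diets in control offspring.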
